A study of Mus musculus with 12 samples.

Results

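Kinesins are motor proteins that bind microtubules, and the gene family taken here holds every symbol in the files that starts with Kif followed by a digit, which gave 38 of the 22552 gene symbols measured. Transcript levels were measured by sequencing total RNA of mouse male germ cells at 4 stages, with 2 libraries per stage, from testes of F1 mice of the strains DBA/2 and C57BL6. The 4 cell types were priSG-A, the primitive type A spermatogonia, taken at 7 days postpartum (dpp), preleptotene spermatocytes (plpSC) at 17 dpp, pachytene spermatocytes (pacSC) at 17 dpp and round spermatids (rST) at 60 dpp, all separated by STAPUT sedimentation, which sorts cells by size. Circular RNA lists came from 4 further libraries of cultured spermatogonial stem cells (SSC, 5 dpp), 2 of them treated with RNase R, which degrades linear RNA. Age differed with stage except between plpSC and pacSC. The labels do not say that replicates came from separate animals, so the p-values reflect only how far these libraries differ, which may be technical.

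Most kinesins use ATP to step along microtubules toward the plus end, while the kinesin-13 proteins take microtubule ends apart. In dividing cells they build the bipolar spindle, move chromosomes and close the midbody. In other cells they carry vesicles, mitochondria and the cargo of cilia and flagella. Male germ cells divide by mitosis as spermatogonia, pass through the meiotic divisions between the pachytene stage and the round spermatid, and then build a flagellum, so the family's members serve different steps of this lineage. The members were divided by their textbook roles into 13 spindle and cytokinesis kinesins, 13 transport kinesins, 6 kinesins of the cilium, flagellum or centriole and 5 others. Kif4b, a single-exon copy of Kif4 that GENCODE lists as the transcribed processed pseudogene Kif4-ps, was kept apart.

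Levels are given as FPKM, fragments scaled by transcript length and by library size. Genes reaching an FPKM of 1 in 2 or more libraries were tested, and 36 kinesins and 14111 genes in all passed this filter. Kif12 and Kif26b did not pass. Changes are differences of log2(FPKM + 1) with their SE, and a gene was called at a limma adjusted p under 0.05, adjusted over all tested genes. The estimated depth of the libraries ranged from 23520448 to 34923958 fragments. Summed stage markers followed the labels of priSG-A, pacSC and rST. The summed FPKM of 8 markers of undifferentiated spermatogonia was 140 and 133 in priSG-A and at most 34.6 elsewhere. That of 9 meiotic prophase markers was highest in pacSC at 2070 and 1670, and that of 8 spermatid markers reached 33400 and 38300 in rST. Id4 alone of the 8 spermatogonial markers was highest in pacSC, at 30.4 and 26.8 FPKM. Of the meiotic markers, Sycp1 and Dmc1 had their highest mean in plpSC and Syce1 in rST. No marker list was specific to plpSC. On log2(FPKM + 1) its replicate 1 correlated at 0.935 with replicate 2 and at 0.937 and 0.939 with the pacSC libraries. Some libraries held more transcripts of another stage or cell type than their partners. Spermatid markers summed to 148 in priSG-A replicate 1 against 19.7 in replicate 2, to 1100 against 450 in plpSC, and to 406 against 5240 in pacSC. Each of the 8 markers went the way of its sum in these stages, but different genes weighed most. Actl7b had 540 and 175 FPKM in plpSC and 174 and 224 in pacSC, while Prm1 had 72.3 and 60.4 in plpSC and 66.1 and 2340 in pacSC. The 11 Sertoli markers summed to 2040 and 2130 in priSG-A, 239 and 329 in plpSC, 123 and 144 in pacSC, then 48.7 and 38.8 in rST. Inhba was listed at 0 in pacSC replicate 1 and Amh in rST replicate 2, and no other Sertoli marker was at 0 in any library.

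The promoters of the spindle kinesins often held the letters of the CHR element, TTTGAA, which the MuvB complexes bind in cell cycle genes. Both strands of 300 bases around each annotated start site, 250 before and 50 after it, were searched in the RefSeq promoter table (GRCm38.p6), which held 35 promoters of 31 of the 38 members (Kif1a, Kif1b, Kif2a and Kif9 have a pair each). These letters stood in 9 of the 13 spindle kinesin promoters (69.2%), 1 of the 12 transport kinesin promoters (8.33%), 1 of the 6 cilium kinesin promoters (16.7%) and 17.9% of all 32851 promoters in the table. In the class of other kinesins 1 of 4 promoters (25%) held them. The CCAAT box, which the factor NF-Y binds, stood in 7 of the 13 spindle (53.8%) and 4 of the 12 transport kinesin promoters (33.3%). It stood in 3 of the 6 cilium kinesin promoters (50%), a share near that of the spindle class, 1 of 4 others (25%) and 37.4% of all promoters. Promoters with both sets of letters made up 6 of the 13 of the spindle class and 0 of the 12 of the transport class. They made up 1 of the 6 of the cilium class, 1 of 4 others and 6.95% of the table. The Myb letters AACNGTT stood in 1 spindle promoter, that of Kif14, in no other kinesin promoter, and in 4.45% of the table. The classes were named from the proteins' roles, so the counts are a description of these windows. No motif overlapped another kind, although Kif20b has a pair of TTTGAA runs that abut.

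The windows below show the hexamer nearest the start site in the 9 spindle kinesin promoters and in Kif1a, the transport kinesin that held it. Each is 30 bases, 5′ to 3′ on the gene's strand, with the hexamer in capitals; TTCAAA is the same element read on the other strand.
Kif11 (chr19:37376351-37376380, plus strand): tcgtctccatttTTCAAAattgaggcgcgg
Kif15 (chr9:122951050-122951079, plus strand): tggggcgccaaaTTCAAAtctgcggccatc
Kif22 (chr7:127042420-127042449, minus strand): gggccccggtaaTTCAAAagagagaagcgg
Kif23 (chr9:61946780-61946809, minus strand): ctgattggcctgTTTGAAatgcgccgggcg
Kif18b (chr11:102925104-102925133, minus strand): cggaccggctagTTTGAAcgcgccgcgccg
Kif20b (chr19:34922353-34922382, plus strand): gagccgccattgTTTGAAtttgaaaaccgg
Kif4 (chrX:100626072-100626101, plus strand): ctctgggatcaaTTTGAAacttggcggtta
Kif2c (chr4:117178858-117178887, minus strand): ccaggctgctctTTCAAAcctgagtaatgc
Kif14 (chr1:136467608-136467637, plus strand): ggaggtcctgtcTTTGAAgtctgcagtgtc
Kif1a (chr1:93082507-93082536, minus strand): tttgacagcctcTTTGAAcattgctcctaa
In the first 7 of these the hexamer began within 19 bases of the start site, on either side of it. In Kif2c it began 103 bases upstream and in Kif14 228 bases upstream. The promoter of Kif23, shown whole because the CCAAT letters (read as ATTGG) and the hexamer stand next to each other at the start site, reads as follows with both in capitals.
Kif23 (chr9:61946750-61947049, minus strand): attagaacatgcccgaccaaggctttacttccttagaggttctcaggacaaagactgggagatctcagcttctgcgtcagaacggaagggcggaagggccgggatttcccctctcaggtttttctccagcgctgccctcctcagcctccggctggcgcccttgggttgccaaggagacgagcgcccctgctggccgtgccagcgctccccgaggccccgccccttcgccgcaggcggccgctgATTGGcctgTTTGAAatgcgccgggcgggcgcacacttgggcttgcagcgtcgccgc

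**Figure D1:**
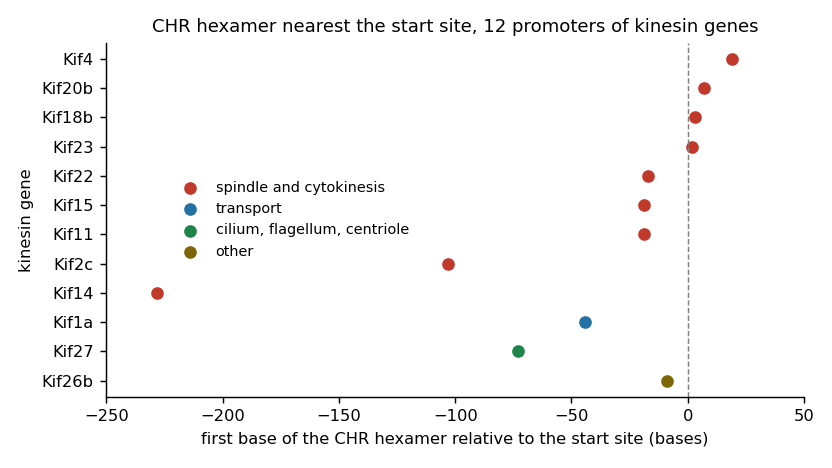
Position of the CHR hexamer nearest the annotated start site in the 12 kinesin promoters that held one. The x axis gives its first base relative to the start site in bases, and the colour gives the class; 7 of the 9 spindle kinesins lie within 19 bases of the start site.

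Across the 4 stages 31 of the 36 tested kinesins changed by the limma F test, 86.1% of them beside 88.5% of all genes tested, a share close to the background. Of these 31, 18 peaked by mean FPKM in priSG-A, 4 in pacSC and 9 in rST, and none in plpSC. In percent this was 58.1, 12.9 and 29, beside 57, 13.8 and 25.3 for all genes called by that test. By class, 9 of the 11 called transport kinesins were highest in priSG-A and 2 in rST, and 6 and 4 of the 10 called spindle kinesins. Of the 6 called cilium kinesins 1 was highest in priSG-A, 3 in pacSC and 2 in rST. The summed FPKM of the family was 545 and 526 in priSG-A, 875 and 566 in plpSC, 656 and 684 in pacSC, then 1090 and 1160 in rST. Spindle kinesins made up 54.2% and 54% of that sum in priSG-A and 51.8% and 52.1% in rST. Transport kinesins went from 34.6% and 35% to 17% and 16.9%, and cilium kinesins from 5.34% and 4.87% to 29.7% and 29.8%. The transport sum itself was 188 and 184 FPKM in priSG-A and 186 and 196 in rST, so its share fell as the family sum grew. Few genes weighed in these sums. In rST, Kif2b and Kif2c had means of 253 and 137 of a spindle sum of 585. Kif9 and Kif27 had 169 and 153 of a cilium sum of 335, and in priSG-A Kif5b had 73.5 of a transport sum of 186. In these bulk samples, fewer cells of a type and less RNA per cell cannot be told apart.

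**Figure D2:**
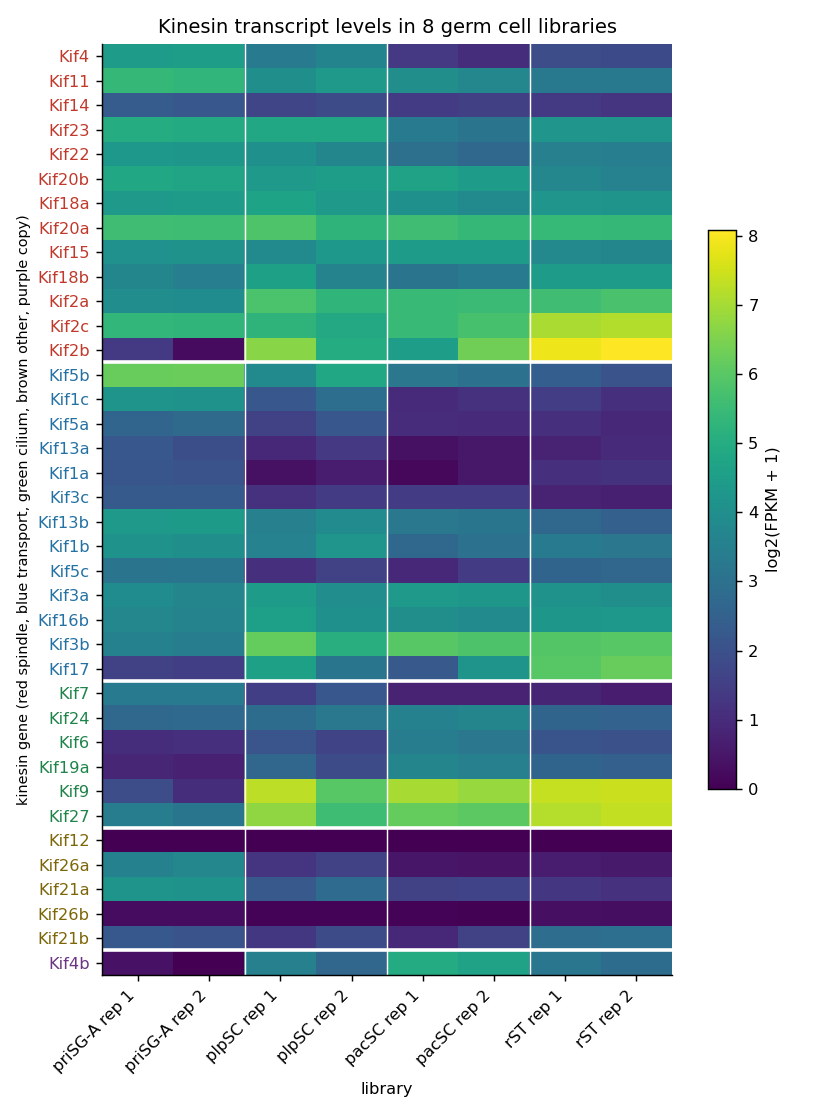
Level of each of the 38 kinesin genes in the 8 libraries, as log2(FPKM + 1) by colour. Rows are grouped by class and, within a class, ordered from genes weighted to priSG-A to genes weighted to rST; Kif5b and Kif11 are bright on the left, and Kif2b, Kif9 and Kif27 on the right.

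From priSG-A to plpSC, 10 kinesins were called higher and 14 lower, 27.8% and 38.9% of the 36 tested against a background of 24.4% and 41.3%. Among the transport kinesins 3 rose (Kif3b, Kif17 and Kif16b) and 8 fell, and among the spindle kinesins 2 rose (Kif2a and Kif2b) and 3 fell (Kif4, Kif11 and Kif14). Of the 6 cilium kinesins 4 rose (Kif6, Kif9, Kif19a and Kif27) and Kif7 fell. The median change was -0.12 for the spindle kinesins, -0.82 for the transport kinesins, 1.15 for the cilium kinesins and -0.35 for all genes tested. Leaving out priSG-A replicate 1 lowered the transport count of falls, and leaving out priSG-A replicate 2 or plpSC replicate 1 lowered its count of rises. The same counts over all genes were also lower in these fits. Without plpSC replicate 1 the spindle median was -0.27 and the transport median -0.5. Over this step the summed Sertoli markers fell from 2040 and 2130 to 239 and 329 FPKM, although Tsx, alone of the 11, rose from 1.88 and 2.2 to 12.1 and 15.9. The summed markers of undifferentiated spermatogonia fell from 140 and 133 to 19.2 and 24.4. These sums fell beside each kinesin that fell. Peritubular myoid and stromal markers instead rose, from 22.1 and 65.1 to 131 and 472 summed. The part of these cells in the kinesin changes was not tested. An edgeR test on recovered fragments, with TMM scaling, gave 13 higher and 9 lower, beside 4132 higher and 3163 lower of all 14111 genes.

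From plpSC to pacSC, 3 kinesins were called higher (Kif6, Kif19a and Kif4b) and 11 lower, 8.33% and 30.6% of the 36 tested against 4.22% and 21.6% of all genes. The falls took in 3 spindle kinesins (Kif4, Kif22 and Kif23) and 5 transport kinesins (Kif1b, Kif1c, Kif5a, Kif5b and Kif13a). With these settings no spindle or transport kinesin was called higher. The balance of this step depended on the scaling: the split over the family was 5 higher and 4 lower after quantile normalization and 7 and 3 with each library centred on its median, which moved the median of all genes from -0.25 to 0.03 and 0.15. With edgeR it was 4 higher and 7 lower. Over all 14111 genes the split was 1243 and 1083 after quantile normalization, 1357 and 1239 with median centring, and 914 and 2056 with edgeR. Median centring gave 2 spindle kinesins higher and 2 lower and 1 transport kinesin each way, quantile normalization 0 and 3 spindle and 1 and 1 transport, and edgeR 1 and 3 spindle and 0 and 2 transport. Of the 13 calls among the kinesins described by library below, those of Kif4, Kif6 and Kif23 held whichever 1 library was left out. The transport count of 5 falls dropped without any 1 library of pacSC, priSG-A or rST, most without pacSC replicate 1. The count of falls over all genes dropped in each of these fits too. The libraries with more spermatid transcripts than their partners were plpSC replicate 1 and pacSC replicate 2. Without both, the median change was -0.34 for the spindle and -0.65 for the transport kinesins, beside -0.32 for all genes. Markers of other cells also differed at this step: 8 peritubular myoid and stromal markers summed to 131 and 472 FPKM in plpSC against 9.24 and 19.6 in pacSC, 5 macrophage markers to 19.7 and 30.5 against 4.84 and 4.34, and 6 Leydig markers to 93.7 and 87.9 against 44.3 and 859. None of these markers was at 0, and their part in the calls was not tested.

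From pacSC to rST, 9 kinesins were called higher and 7 lower, 25% and 19.4% of the 36 tested against a background of 17.7% and 16.7%. The rises included the spindle kinesins Kif2b, Kif2c, Kif18b and Kif23, the transport kinesins Kif1a, Kif5c and Kif17, and Kif21b and Kif27. The falls were those of Kif15, Kif20b, Kif3c, Kif6, Kif19a, Kif24 and Kif4b. Markers of other cells differed here as well. Macrophage markers summed to 4.84 and 4.34 FPKM in pacSC and 33.1 and 27.1 in rST, and peritubular myoid and stromal markers to 9.24 and 19.6, then 95.9 and 63. Sertoli markers went the other way, from 123 and 144 to 48.7 and 38.8. Their part in the calls was not tested. The median change was 0.26 for the spindle and 0.21 for the transport kinesins beside -0.03 for all genes. Without rST replicate 2 limma called 0 kinesins either way and 1 gene in all, and without rST replicate 1 it called 3 higher and 1 lower. Leaving out either pacSC library lowered both counts, and leaving out either plpSC library raised the count of falls. In each of these fits the counts over all genes moved the same way.

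Round spermatids against priSG-A, the ends of the series, share libraries with the steps above. Here 13 kinesins were called higher and 17 lower, 36.1% and 47.2% of the 36 tested against a background of 29.5% and 53.6%. The transport kinesins counted 3 higher and 8 lower with a median of -1, the spindle kinesins 4 and 6 with a median of -0.37 and the cilium kinesins 4 and 1 with a median of 1.36, beside -0.76 for all genes. With each library centred on its median, 14 were higher and 11 lower, beside 5299 and 5732 of all genes. With edgeR the counts were 14 and 12, beside 5049 and 5965. The median of all genes then stood at -0.11 and -0.33. The spindle kinesins' direction turned with these scalings: 4 were higher and 2 lower with a median of 0.28 after median centring, and 4 higher and 3 lower with a median of 0.25 by edgeR, where the transport kinesins counted 4 higher and 6 lower in both, with medians of -0.35 and -0.86. The spindle count of falls dropped without priSG-A replicate 1, as did that over all genes.

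**Figure D3:**
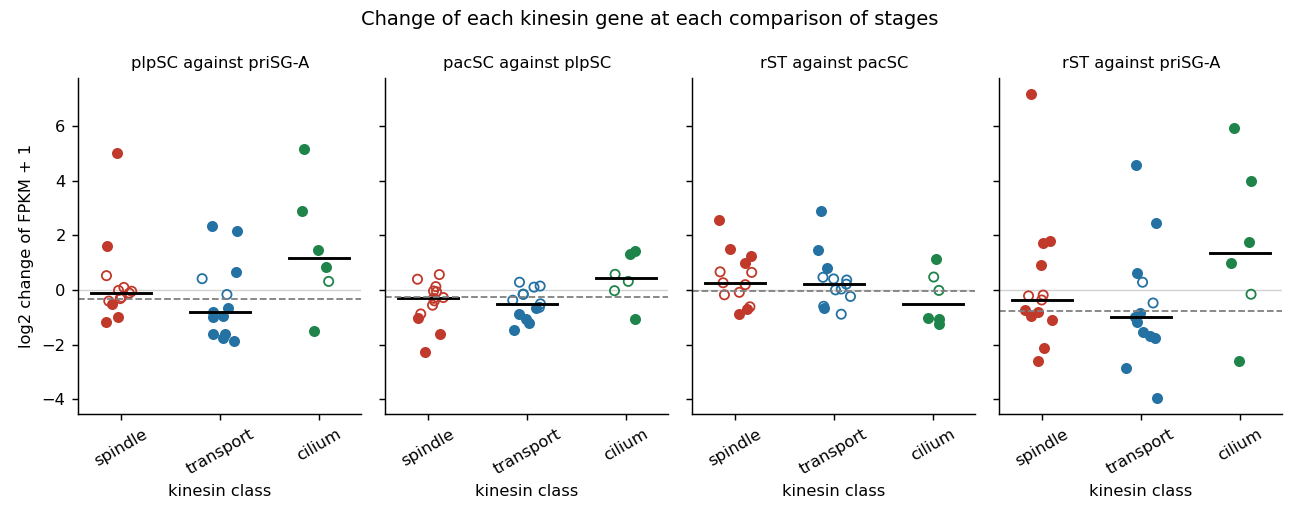
Change of each tested kinesin (points) as a difference of log2(FPKM + 1), by class, in the 4 comparisons. Filled points passed the limma test and open points did not, black bars are class medians and the dashed line is the median of all genes tested; the cilium kinesins' bar is the highest of the 3 at the first and second steps, at 1.15 and 0.44, and the lowest at the third, at -0.53.

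Among the mitotic spindle kinesins Kif11 and Kif4 fell furthest over the series. Kif11, the tetrameric motor that pushes spindle poles apart, had an FPKM of 41.1 and 39.0 in priSG-A, 15.2 and 19.4 in plpSC, 15.1 and 12.4 in pacSC, then 8.54 and 8.53 in rST. All priSG-A values lay above all later ones, and those of rST below all others. Its fall from priSG-A to plpSC was -1.17 ± 0.21 (adjusted p = 0.00212) and that from priSG-A to rST was -2.11 ± 0.21 (adjusted p = 5.9e-05). The cytokinesis kinesin Kif23, which forms the centralspindlin complex with Racgap1, had 30.8 and 29.5 FPKM in priSG-A, 27.7 and 27.8 in plpSC, 9.27 and 7.58 in pacSC, then 17.6 and 17.5 in rST. It was lowest in pacSC, and its rST libraries stood between those of pacSC and the earlier stages. Its change was -1.61 ± 0.19 from plpSC to pacSC (adjusted p = 0.00647) and 0.98 ± 0.19 from pacSC to rST (adjusted p = 0.009), the second not called without either rST library. Kif22, a chromokinesin that binds chromosome arms, followed the same order with 18.8 and 18.6, then 15.6 and 12.2, then 6.95 and 5.5, then 10.4 and 10 FPKM. Its fall into pacSC of -1.04 ± 0.21 was called (adjusted p = 0.0158), though not without pacSC replicate 2 or with median scaling, and its 0.64 ± 0.21 into rST was not (adjusted p = 0.0503). Kif20b, a kinesin of the midzone and midbody, had 26.9 and 25.4 FPKM in priSG-A, 19.9 and 21.4 in plpSC, 24.1 and 21.2 in pacSC, then 12.4 and 11.1 in rST. Only its rST libraries stood below the rest, by -0.89 ± 0.19 against pacSC (adjusted p = 0.0112), a call not made without either rST library or pacSC replicate 1. Kif18b, which shortens microtubules at their plus ends, had 12 and 10.1 FPKM in priSG-A, 23.1 and 11.3 in plpSC, 7.68 and 9.09 in pacSC, then 21.3 in each rST library. Its plpSC libraries disagreed, the first near the rST level and the second near that of priSG-A, and the rise from pacSC to rST was 1.25 ± 0.32 (adjusted p = 0.0199).

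The F test over the stages did not call 3 other mitotic kinesins. Kif20a, a cytokinesis motor, had 37.6 to 57.3 FPKM over the 8 libraries with an F test adjusted p of 0.864. Kif15, which can sustain a bipolar spindle beside Kif11, lay between 12.2 and 21.3 FPKM (F adjusted p = 0.0709), and in the single steps its change of -0.71 ± 0.21 from pacSC to rST was called (adjusted p = 0.0363). Kif18a, which damps chromosome movements, lay between 13.3 and 24.6 FPKM (F adjusted p = 0.102). Kif14, a cytokinesis kinesin, was low, from 1.38 to 4.15 FPKM, and highest in priSG-A. The 16 spindle and midbody partners of kinesins taken alongside counted 2 higher and 3 lower at the first step, 12.5% and 18.8% beside 24.4% and 41.3% of all genes, with a median of -0.17. The largest of those changes were the rise of the kinase Aurka by 1.96 ± 0.36 (adjusted p = 0.00256) and the fall of the kinase Aurkb by -1.41 ± 0.24 (adjusted p = 0.00167). Racgap1, the partner of Kif23, had 44.8 and 43.2 FPKM in priSG-A and 30 and 24.6 in pacSC, and neither of its changes on the way was called (adjusted p = 0.117 and 0.407). The 10 proliferation markers summed to 646 and 620 FPKM in priSG-A, 685 and 532 in plpSC, 522 and 417 in pacSC, then 490 and 466 in rST. The sum joins markers that moved in opposite directions. From priSG-A to rST 6 of the 10 were called lower and 1 higher, 60% and 10% beside 53.6% and 29.5% of all genes. Their median was -1.22 beside -0.76. Mcm2 went from a mean of 79.9 to 3.85 FPKM, and Ccnb2, the 1 called higher, from 36.6 to 150.

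The Kif2 genes of the kinesin-13 group, whose proteins depolymerize microtubules, were all called higher in rST than in priSG-A. Kif2a had 14.7 and 14.1 FPKM in priSG-A, 54.0 and 38.1 in plpSC, 43.4 and 44.7 in pacSC, then 47.9 and 52.8 in rST. It rose by 1.59 ± 0.22 at the first step (adjusted p = 0.000777), and neither later step was called. Kif2c, which corrects faulty kinetochore attachments, had 40.2 and 37.7 FPKM in priSG-A, 36.9 and 28.1 in plpSC, 43.9 and 52.5 in pacSC, then 133 and 141 in rST. The 3 earlier stages spanned 28.1 to 52.5 FPKM, and rST stood above them all, 1.49 ± 0.22 above pacSC (adjusted p = 0.00515). Kif2b, a single-exon gene at chr11:91436600-91438869 (mm9), had 1.59 and 0.182 FPKM in priSG-A, 99.7 and 30.8 in plpSC, 21.9 and 79.4 in pacSC, then 236 and 270 in rST. In fragments, the priSG-A values were about 145 and 19. Kif2b rose by 5.02 ± 0.72 into plpSC (adjusted p = 0.000897), its plpSC and pacSC libraries overlapped, and it rose by a further 2.56 ± 0.72 into rST (adjusted p = 0.0289). Within each of priSG-A, plpSC and pacSC, the library with more Kif2b was also the one with the larger sum of the 8 spermatid markers; the part of such cells or RNA in these values was not tested. The rises of Kif2b, Kif2c and Kif18b into rST were not called without rST replicate 2, and those of Kif2b and Kif18b also not without pacSC replicate 1 or rST replicate 1. That of Kif2b was further not called with edgeR (adjusted p = 0.122), with a pseudocount of 0.1 or with no filter on low values.

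The X-linked Kif4 (chrX:97821404-97922610, mm9), a chromokinesin that also sets the length of the spindle midzone, and its autosomal copy Kif4b (chr12:102383819-102387483, mm9) ran in opposite directions into the pachytene stage. Kif4 had 21.1 and 21.7 FPKM in priSG-A, 8.81 and 11.5 in plpSC, 1.56 and 1.08 in pacSC, then 2.77 and 2.53 in rST. Kif4b had 0.308 and 0.00572 FPKM in priSG-A, 10.4 and 5.39 in plpSC, 30.2 and 24.4 in pacSC, then 8.11 and 6.3 in rST. No library of priSG-A overlapped one of pacSC for either gene, and their order in FPKM was reversed between these stages. Kif4 fell by 2.27 ± 0.22 from plpSC to pacSC (adjusted p = 0.00647), while Kif4b rose by 1.72 ± 0.32 (adjusted p = 0.0132) and then fell by 1.79 ± 0.32 into rST (adjusted p = 0.00772). The rise of Kif4b into pacSC was not called without pacSC replicate 1, with a pseudocount of 0.1 or with edgeR (adjusted p = 0.139), and its fall into rST was not called without rST replicate 2 or with edgeR (adjusted p = 0.151). The priSG-A values of Kif4b rested on about 47 fragments in replicate 1, the library with more spermatid transcripts, and 1 in replicate 2.

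Since a copy can take reads of its parent, the GENCODE transcripts of both (GRCm38) were aligned. They were identical at 2936 of 3692 aligned columns (79.5%), and the copy spans nearly the whole Kif4 coding sequence, with its first base aligned to the first coding base. The longest identical run was 64 bases, and 0.412% of 50-base windows and 0.0% of 100-base windows were identical. A stretch of 60 bases from the Kif4 coding sequence (bases 2576 to 2635 of the transcript) and its counterpart in the copy (bases 1826 to 1885) shows part of their divergence, with the 10 differing bases in capitals.
Kif4 (chrX): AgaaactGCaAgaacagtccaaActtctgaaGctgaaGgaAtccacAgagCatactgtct
Kif4b (chr12): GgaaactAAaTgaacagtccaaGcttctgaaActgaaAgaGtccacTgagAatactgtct
How multiply mapped reads were counted is not given in the sources used here.

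**Figure D4:**
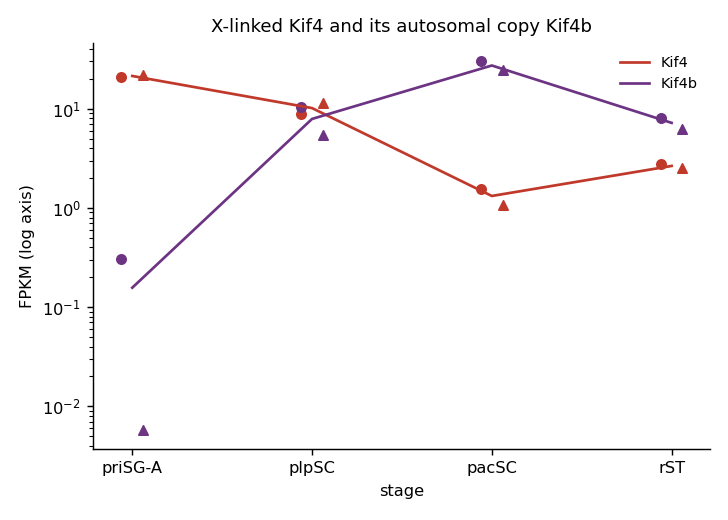
FPKM (log axis) of Kif4 and Kif4b by stage. Circles are replicate 1, triangles replicate 2 and lines join stage means; Kif4 goes from 21.1 and 21.7 in priSG-A to 1.56 and 1.08 in pacSC while Kif4b goes from below 1 to 30.2 and 24.4.

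The conventional kinesin heavy chains, which pair with the light chains to carry organelles and vesicles, were highest in priSG-A. Kif5b, the ubiquitous form, had 72.7 and 74.3 FPKM in priSG-A, 13.6 and 27.1 in plpSC, 8.3 and 7.28 in pacSC, then 4.38 and 3.17 in rST. Each stage lay below the one before it with no overlap, and its change from priSG-A to rST was -3.97 ± 0.32 (adjusted p = 3.6e-05). Kif5a had 5.23 and 5.89 FPKM in priSG-A, 1.99 and 3.62 in plpSC, 1.03 and 0.996 in pacSC, then 1.16 and 0.874 in rST, a change over the series of -1.70 ± 0.24 (adjusted p = 0.000277). Kif5c differed from both, with 7.63 and 7.81 FPKM in priSG-A, 1.17 and 2.01 in plpSC, 0.917 and 1.73 in pacSC, then 5.12 and 5.41 in rST. It fell by 1.77 ± 0.25 into plpSC (adjusted p = 0.00085) and rose by 1.45 ± 0.25 into rST (adjusted p = 0.00714), a call not made without rST replicate 2. Among the light chains, Klc3 had the same shape, with 7.86 and 8.4 FPKM in priSG-A, 0.481 and 2.17 in pacSC, then 10.1 and 12.8 in rST, and rose by 2.51 ± 0.37 at the last step (adjusted p = 0.0051). Klc1 fell from 16.4 and 18.5 to 3.81 and 3.18 FPKM between the ends of the series (-2.04 ± 0.31, adjusted p = 0.000457), and Klc4 fell by 0.86 ± 0.22 at the first step (adjusted p = 0.0115) and rose by 1.05 ± 0.22 into rST (adjusted p = 0.0119). Klc2 rose by 0.61 ± 0.20 at the first step (adjusted p = 0.0294), from 14 and 14.2 to 25.1 and 19.3 FPKM. The falls of Kif5a and Kif5b from plpSC to pacSC, -0.88 ± 0.24 (adjusted p = 0.033) and -1.21 ± 0.32 (adjusted p = 0.0314), were not called without either pacSC library, either priSG-A library or either rST library, nor after quantile or median scaling or with edgeR.

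In the kinesin-3 group of vesicle carriers Kif1c, Kif13b and Kif1b fell over the series, while Kif16b rose. Kif1c had 17.2 and 16.4 FPKM in priSG-A, 3.55 and 6.57 in plpSC, 0.99 and 1.23 in pacSC, then 1.75 and 1.17 in rST, and its change over the series was -2.86 ± 0.28 (adjusted p = 5.7e-05). Kif13b had 19.5 and 20.0, then 10.5 and 13.8, then 8.48 and 7.91, then 5.55 and 4.63 FPKM, each stage below the last, with -1.77 ± 0.21 over the series (adjusted p = 0.000127). Its first step of -0.66 ± 0.21 (adjusted p = 0.0251) was not called without either priSG-A library, with median scaling or with edgeR. Kif1b, known for mitochondria and synaptic vesicles, had 16.2 and 15.4 FPKM in priSG-A, 11 and 17.5 in plpSC, 5.44 and 7.01 in pacSC, then 8.79 and 8.12 in rST. Its fall over the series of -0.83 ± 0.25 (adjusted p = 0.016) was not called after quantile or median scaling, reversed to 0.17 with edgeR on recovered fragments (adjusted p = 0.555), and was not called without any 1 library of priSG-A or rST. Kif1a, Kif3c and Kif13a stayed at or below 3.94 FPKM in every library and were highest in priSG-A. Kif16b, an endosome motor, had 12.3 and 11.2 FPKM in priSG-A, 22.5 and 15.8 in plpSC, 14.8 and 13.7 in pacSC, then 18.2 and 19 in rST. It was called higher at the first step (0.64 ± 0.22, adjusted p = 0.0326) and over the series (0.62 ± 0.22, adjusted p = 0.0287), though not by the F test (adjusted p = 0.0622). Both calls of Kif16b were lost without priSG-A replicate 1 and also without priSG-A replicate 2. The first was lost too in a fit of only the priSG-A and plpSC libraries. As at the first step, the falls of Kif1b, Kif1c, Kif13b and the conventional kinesins ran beside the fall of the Sertoli markers, to 48.7 and 38.8 FPKM summed in rST.

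The heterotrimeric kinesin-2 motor drives intraflagellar transport, the carriage of building blocks along cilia and flagella. Its subunit Kif3b had 10.6 and 9.72 FPKM in priSG-A, 71.7 and 32.8 in plpSC, 62.8 and 55.7 in pacSC, then 59.1 and 62.0 in rST, a first step of 2.15 ± 0.34 (adjusted p = 0.00132) with no later step called. Kif3a, its motor partner, lay between 11.9 and 21.1 FPKM with no change called over the stages (F adjusted p = 0.216). In pacSC and rST Kif3b therefore stood at 55.7 to 62.8 FPKM and Kif3a at 15.4 to 19.6. Kifap3, the subunit that binds cargo, had 9.07 and 8.16 FPKM in priSG-A, 55.9 and 23.7 in plpSC, 24.6 and 40.0 in pacSC, then 93.8 and 118 in rST. It rose by 1.97 ± 0.41 into plpSC (adjusted p = 0.00424) and by 1.71 ± 0.41 into rST (adjusted p = 0.0162). Of 12 genes for intraflagellar transport cargo 9 were higher at the first step and none lower, 75% and 0% beside 24.4% and 41.3% of all genes, with a median of 1.75 beside -0.35. In all 12, plpSC replicate 1, the library with more spermatid transcripts (1100 against 450 FPKM summed), stood above replicate 2, as with 54.8 and 22.6 FPKM for Ift57 and 270 and 126 for Ift74. The same held for Kif3b and Kifap3. In pacSC, replicate 1, with the smaller spermatid sum (406 against 5240 FPKM), stood above replicate 2 for each of these cargo genes but Ift140. Kif3b went the same way there (62.8 and 55.7 FPKM) and Kifap3 the other way (24.6 and 40.0). The part of spermatid transcripts in the rises was not tested. Ift140 led with 9.25 and 7.68 FPKM in priSG-A and 83.7 and 46.9 in plpSC (2.76 ± 0.29, adjusted p = 0.000251), followed by Ift172 (2.35 ± 0.26), Ift57 (2.13 ± 0.37) and Ift122 (2.09 ± 0.27).

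Kif17, a homodimeric kinesin-2 that in mouse testis is known to bind the CREM coactivator ACT, had the largest rise of the transport kinesins over the series, 4.57 ± 0.65 (adjusted p = 0.000304). It had 1.96 and 1.84 FPKM in priSG-A, 23.1 and 7.73 in plpSC, 3.81 and 17.1 in pacSC, then 62.5 and 73.4 in rST. The rST libraries stood above all others, while those of plpSC and pacSC overlapped. Kif17 rose by 2.32 ± 0.65 into plpSC (adjusted p = 0.015), a call not made without plpSC replicate 1 or priSG-A replicate 2. It rose by 2.88 ± 0.65 into rST (adjusted p = 0.0136), a call not made without pacSC replicate 1 or either rST library. As with Kif2b, its higher library in plpSC and in pacSC was the one with more spermatid transcripts, 1100 against 450 and 5240 against 406 FPKM summed, and their part in it was not tested.

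Of 15 tested cargo adaptors 4 rose and 7 fell at the first step, 26.7% and 46.7% beside 24.4% and 41.3% of all genes, shares near the background, with a median of -0.41. The scaffold Mapk8ip2 had 0.869 and 0.356 FPKM in priSG-A, 57.6 and 21.1 in plpSC and 49.2 and 49.3 in rST, a rise of 4.50 ± 0.42 (adjusted p = 0.000195). Plekhm2, an adaptor for lysosomes, rose by 1.87 ± 0.34 (adjusted p = 0.00248), Apba1 by 1.31 ± 0.24 (adjusted p = 0.00258), and the lysosomal GTPase Arl8a fell by 1.31 ± 0.23 (adjusted p = 0.00209). Among the minus-end kinesins, Kifc3 rose by 1.54 ± 0.30 (adjusted p = 0.00306) and Kifc2 fell by 0.96 ± 0.15 (adjusted p = 0.00133). Kifc1 and Kifc5b, near-identical genes whose reads may be split between them, fell by 0.88 ± 0.23 (adjusted p = 0.0107) and -0.78 ± 0.22 (adjusted p = 0.0148).

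Of the cilium and flagellum kinesins, Kif9 and Kif27 rose most at the first step. Kif9, which in mouse sperm is needed for normal flagellar beating, had 2.79 and 1.1 FPKM in priSG-A, 155 and 62.1 in plpSC, 130 and 114 in pacSC, then 166 and 172 in rST. The change into plpSC was 5.14 ± 0.44 (adjusted p = 0.000182), and no later step was called. On log2(FPKM + 1) it lay above the 5.02 of Kif2b, and with edgeR below it, 6.3 against 6.5. Kif27, related to the Drosophila Hedgehog regulator Costal2, had 9.78 and 7.79 FPKM in priSG-A, 105 and 46.7 in plpSC, 71.8 and 65.7 in pacSC, then 143 and 162 in rST, and rose by 2.87 ± 0.36 into plpSC (adjusted p = 0.000513). As with Kif2b and Kif17, plpSC replicate 1, the library with more spermatid transcripts, was the higher for both genes. In pacSC they differed from Kif2b and Kif17, since replicate 2, with the larger spermatid sum, was the lower for both Kif9 and Kif27. Without plpSC replicate 1 the first-step rises were 4.48 for Kif9 and 2.29 for Kif27, and the part of spermatid transcripts was not tested. The rise of Kif27 into rST, 1.14 ± 0.36 (adjusted p = 0.0443), was not called under quantile or median scaling, with no filter or with edgeR. Nor was it called without any 1 library of priSG-A, pacSC or rST. Kif7, the other relative of Costal2 and a regulator of Hedgehog signalling at the cilium tip, ran opposite to Kif27. It had 9.1 and 9.18 FPKM in priSG-A, 1.84 and 3.53 in plpSC, 0.734 and 0.695 in pacSC, then 0.802 and 0.576 in rST, a change over the series of -2.59 ± 0.24 (adjusted p = 5.1e-05).

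**Figure D5:**
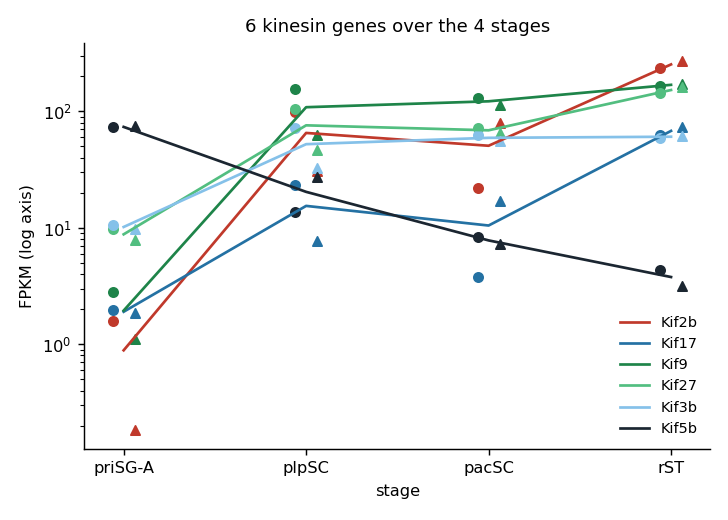
FPKM (log axis) of 6 kinesin genes by stage; circles are replicate 1, triangles replicate 2 and lines join stage means. Kif2b and Kif17 reach their highest values in rST (236 and 270, 62.5 and 73.4), Kif9, Kif27 and Kif3b rise by plpSC, and Kif5b falls from 72.7 and 74.3 to 4.38 and 3.17.

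The remaining 3 of the cilium class peaked in pacSC. Kif19a, which limits cilium length by depolymerizing microtubules, had 0.814 and 0.68 FPKM in priSG-A, 5.34 and 2.69 in plpSC, 11.9 and 10.4 in pacSC, then 5.11 and 4.57 in rST. Kif6 had 1.1 and 1.12, then 3.41 and 2.16, then 9.62 and 8.31, then 3.32 and 3.01 FPKM. For both, each pacSC library stood above every library of the other stages. Their rises into pacSC were 1.33 ± 0.28 (adjusted p = 0.017) and 1.41 ± 0.22 (adjusted p = 0.00947), and their falls into rST were -1.06 ± 0.28 (adjusted p = 0.0222) and -1.26 ± 0.22 (adjusted p = 0.00754). The rise of Kif19a was not called without either pacSC library, and both falls were not called without either rST library, that of Kif19a also not without either pacSC library or after quantile normalization. Kif24, which in human cells acts at the mother centriole, had 5.47 and 5.78 FPKM in priSG-A, 6.24 and 8.33 in plpSC, 10.6 and 11.7 in pacSC, then 5.07 and 4.77 in rST, and fell by 1.04 ± 0.21 into rST (adjusted p = 0.0102), again not without either rST library. The meiotic prophase markers were also highest in pacSC, with 1050 and 969 FPKM summed in plpSC, 2070 and 1670 in pacSC, then 719 and 678 in rST.

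Of the other kinesins, Kif26a and Kif21a fell over the series. Kif26a, a kinesin without motor activity, had 10.7 and 12.3 FPKM in priSG-A, 1.35 and 1.93 in plpSC, 0.389 and 0.336 in pacSC, then 0.534 and 0.488 in rST, with a first step of -2.25 ± 0.18 (adjusted p = 0.000176). Kif21a, a regulator of microtubule growth at the cell cortex, had 17.1 and 16.6, then 3.78 and 6.16, then 1.98 and 2.12, then 1.42 and 1.22 FPKM, and changed by -2.94 ± 0.24 over the series (adjusted p = 3.6e-05), beside -3.05 for Kif26a. The order of the deepest falls depended on the scale: on log2(FPKM + 1) Kif5b led with -3.97, and with edgeR Kif26a did with -3.85, followed by Kif5b at -3.65, Kif7 at -3.09, Kif1c at -2.89 and Kif21a at -2.83. The falls of both from plpSC to pacSC were not called without either pacSC library or after quantile or median scaling, and that of Kif21a also not with edgeR or without any 1 library of priSG-A or rST. Kif21b, its relative, was instead highest in rST with 6.38 and 6.73 FPKM, after 3.67 and 3.21 in priSG-A, 1.48 and 2.7 in plpSC and 0.882 and 2.01 in pacSC. Its last step was 1.67 ± 0.29 (adjusted p = 0.00725), not called without rST replicate 2. Kif26b stayed between 0.0435 and 0.251 FPKM. Kif12 had 0.0111 and 0.00965 FPKM in priSG-A, about 1 fragment in each library, and was listed at 0 in the other 6 libraries.

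Back-splice junctions of circular RNAs (circRNAs), counted in the cultured SSC libraries, lay in 26 of the 38 kinesin loci. Of 29643 circRNAs listed in all, 113 fell inside these loci, 98 of them typed as exonic and 15 as intronic in the lists. The same counts were not made for other gene loci, so these are descriptions only. Kinesin loci took 473 of 263855 junction reads (0.179%, exact 95% interval 0.163 to 0.196) and 1174 of 560991 (0.209%, 0.197 to 0.222) in the RNase R libraries. In the untreated libraries they took 28 of 21754 (0.129%, 0.0855 to 0.186) and 39 of 30400 (0.128%, 0.0912 to 0.175). These intervals cover counting error only, no test was made, and how many circRNAs are listed grows with depth. Of the 113, 82 stood in 1 list and 3 in all 4. The most abundant joins Kif15 exons over chr9:122868235-122875104 (mm9), with 114 and 236 reads after RNase R and 8 in each untreated library. One in Kif2a (chr13:107772604-107778155) had 42 and 121 treated and 4 and 5 untreated reads, and one in Kif14 (chr1:138399224-138410399) had 13 and 38 treated and 3 and 2 untreated. Over all libraries Kif15 gave 421 reads, Kif2a 303, Kif16b 221, Kif6 167 and Kif24 104. Of these hosts, the F test over the stages, made on other cells, called Kif2a, Kif6 and Kif24 and did not call Kif15 and Kif16b. The loci with no listed circRNA took in the single-exon Kif2b and Kif4b and also multi-exon genes such as Kif5b, which has up to 26 exons.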

How the data were processed

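Each germ cell library was deposited as FPKM per gene with confidence bounds, per the file headers. Build mm9 and the tools BWA, Cuffdiff and TopHat2 2.0.6 are listed, without their roles, in the submitters' processing notes. Strand and the counting of multiply mapped reads are not given in the sources used here. The SSC libraries were deposited as counts of junction reads for each circRNA, per the file headers. Of 23021 entries per library, those sharing a symbol were summed, leaving 22552 symbols. Fragments were recovered by taking each bound to lie 2 SD of a Poisson count from the value; between 78.1% and 78.8% of values below 200 lay within 0.05 of a whole number, so depths are estimates.

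Stages were compared with limma 3.58.1 (R 4.3.3; trended eBayes) on log2(FPKM + 1) over all 8 libraries, 1 mean per stage and 4 residual degrees of freedom, two-sided, with Benjamini-Hochberg adjustment over 14111 genes. Class counts and medians are descriptions with no test. Genes were described by library if the F test called them and their highest stage mean was at least 5 FPKM, or if their class held fewer than 4 such genes; of other lists, up to 4 called genes per step. The members, classes and lists were chosen with earlier results of these data known. A circRNA was assigned to a locus (mm9) that contains it whole. Kif4 transcripts (GENCODE M21) were aligned with blastn 2.17.0. Alternatives were other pseudocounts, filters and scalings, stage weights, a replicate block, edgeR 4.0.16 (quasi-likelihood, TMM) on recovered fragments, and leaving out libraries. The fits were tested on simulated data. Other steps used Python 3.11.15 (pandas 2.3.3, scipy 1.17.1, matplotlib 3.10.9).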

Additional observations from a re-analysis of the deposited data

How the results depend on the processing

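The 31 kinesins called by the F test became 27 to 34 under the other pseudocounts, filters, scalings and weights, 32 with edgeR, 33 without plpSC replicate 1 and pacSC replicate 2, and 29 to 35 with 1 library left out. At plpSC against priSG-A, leaving out 1 library gave 7 to 12 higher and 10 to 15 lower, and edgeR gave 9 lower. At pacSC against plpSC, the 3 higher and 11 lower became 5 and 4 by quantile normalization and 7 and 3 by median centring. They became 1 and 2 in fits of only the libraries compared (which called 64 genes higher and 616 lower in all). With a weight per stage they became 0 and 0 (which called 0 genes higher and 1 lower in all). Fewer were lower, 7, with no filter or with edgeR. Without plpSC replicate 1 or plpSC replicate 2 the higher count was 5, without pacSC replicate 1 it was 1; the lower count was 3 without either pacSC library, 6 without either priSG-A library and 5 without either rST library. At rST against pacSC, leaving out 1 library gave 0 to 13 higher and 0 to 11 lower. At rST against priSG-A it gave 10 to 13 higher and 14 to 18 lower, and median centring gave 11 lower. In fits that leave a stage with 1 library, that library is assumed to vary like the others. The counts over all genes moved in these fits as well.

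The spindle median minus the transport median, with no test, was 0.7, 0.2, 0.04 and 0.63 in the 4 comparisons. The first was 0.9 and 0.34 with pseudocounts of 0.1 and 5, 0.33 with an FPKM of at least 5, 0.42 by quantile normalization, 0.23 without plpSC replicate 1 and pacSC replicate 2, and 0.23 to 1.01 with 1 library left out (0.23 without plpSC replicate 1, 1.01 without plpSC replicate 2). The second ranged from 0.04 to 0.2 with 1 library left out. The third changed sign with a pseudocount of 0.1 (-0.07), with edgeR (-0.11), without Kif2a, Kif2b and Kif22 (-0.13), without plpSC replicate 1 and pacSC replicate 2 (-0.09), without pacSC replicate 2 (-0.09) and without rST replicate 2 (-0.05), with a range of -0.09 to 0.23 over single libraries. The last was 1.03 and 0.19 with the pseudocounts, 0.36 with the stricter filter, 0.18 by quantile normalization, 0.44 without Kif2a, Kif2b and Kif22, 1.11 with edgeR, and 0.54 to 0.71 with 1 library left out. The cause of these shifts was not tested.

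Of 70 calls of named kinesins, edgeR kept 55, and it reversed Kif1b at rST against priSG-A (0.17). Every call of the 13 at rST against pacSC was lost without rST replicate 2, while 15 of 19 at plpSC against priSG-A and 20 of 25 at rST against priSG-A held whichever 1 library was left out. The labels do not say whether libraries with the same replicate number were paired. Correlations of same-numbered deviations ran from -0.314 to 0.38, which cannot settle this with 2 libraries per stage. With a replicate block 69 of the 70 calls held, and kinesins called lower numbered 13, 9, 6 and 17 in the 4 comparisons and higher 10, 3, 9 and 13; the F test called 31. The planned use of the entry with the highest mean was not run, since entries could not be matched between files, and the highest entry in each library, chosen after seeing the data, changed no count, as edgeR and the pair of libraries were also added then. Fewer than 200 estimated fragments lie behind all values of Kif12 and Kif26b, the priSG-A values of Kif2b, Kif4b, Kif6, Kif17 and Kif19a, 1 priSG-A value of Kif9, and 1 or more later values of Kif1a, Kif3c, Kif5a, Kif7, Kif13a, Kif21a and Kif26a.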
